A study of Drosophila melanogaster with 3 samples.

Results

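The genes described here encode ion channels, ion pumps and proteins that move or sense calcium, and their transcripts were compared between larval hearts of *hand173* null mutants and w1118 animals. The group consists of 43 genes chosen by CG number from what their products are known to do. The rule uses no measured ratio, although earlier results of these data were known when the list was made. Of these 43 genes, 23 had a row among the 7498 genes of the array data and 20 had none. A value on at least 2 of the 3 arrays, which the scoring of a gene requires, was present for 8 of the 23.

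In the fly heart, as in other muscle, a beat starts when channels in the cell membrane depolarize the cell and let calcium in, and calcium then leaves the sarcoplasmic reticulum to drive contraction. Relaxation follows when pumps and exchangers return calcium to the store or expel it, while potassium channels restore the resting potential. The sodium potassium pump maintains the ion gradients on which all of these currents depend.

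Both genotypes were raised at 22 °C and used as wandering larvae of the 3rd instar, w1118 as wild type and homozygous *hand173* as the null mutant. Approximately 100 heart tubes per genotype were dissected after 15 s in a water bath at 60 °C, and the RNA of each genotype formed 1 pool, which was amplified and hybridized to 3 two-colour arrays. Mutant RNA carried Alexa Fluor 647 and wild type RNA Alexa Fluor 555 on every array, so that dye and genotype cannot be told apart. According to the sample labels the tissue included pericardial cells and longitudinal ventral muscles, whereas the methods name alary muscles, and the labelling protocol speaks of fat bodies where the methods speak of hearts. The sample titles carry the unexplained abbreviation bR, while technical replicates are named in the methods. Since by the methods the 3 arrays measured the same pair of RNA pools, differences between the genotypes have no replicate check, no p-value is given, and each SD stands for the spread between arrays only. A lower ratio in such a tissue sample can come from fewer cells of a type or from less RNA per cell, which cannot be told apart.

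All values were read as log2 ratios of *hand173* over wild type, a base inferred from the values themselves, so that positive values mean more transcript in the mutant. The medians of the arrays differed. Over all genes with a value, array 1 had a median log2 ratio of 0.97 (1372 genes), array 2 of 0.38 (2650 genes) and array 3 of -0.56 (6459 genes). These medians were taken over different sets of genes, and 466 genes had a value on all 3 arrays. A shift of a whole array and a difference in which genes had a value on it cannot be told apart here. Each ratio is therefore given as deposited and after the median of its array had been set to 0, termed centred below. The *hand* gene itself was measured on array 3 alone, with -0.16 as deposited and 0.40 after centring. A ratio carries no expression level, so that marker genes could not show how much of each tissue the samples held. *Mef2*, a muscle transcription factor, had a centred log2 ratio of 0.78 on array 3, where 8 muscle markers ran from -1.61 to 1.31, and no row was used here for the pericardial matrix gene *prc*, the neuronal gene *elav* or the hemocyte gene *Hml*.

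**Figure D1:**
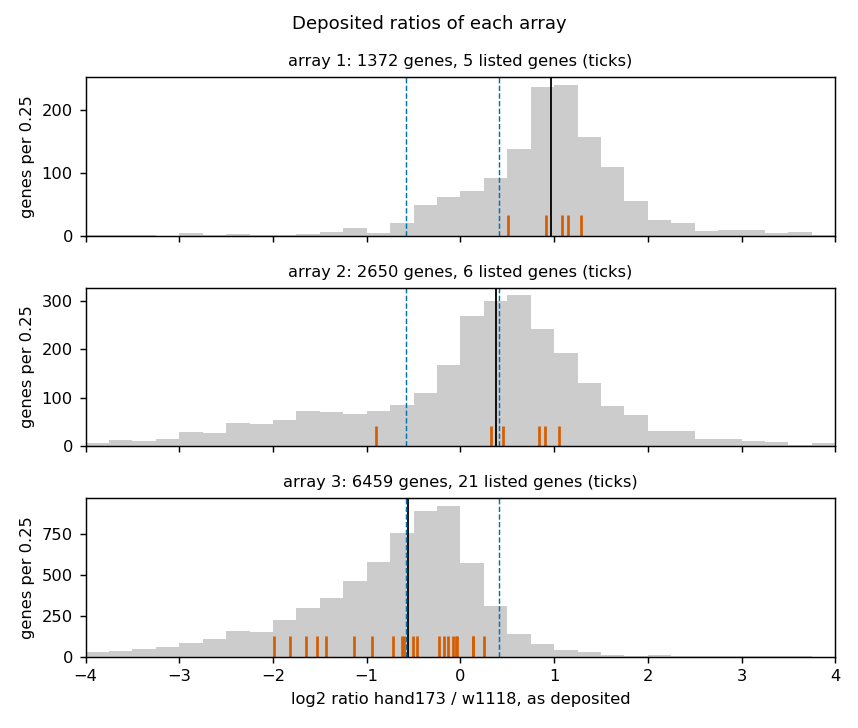
Number of genes (vertical axis, per 0.25 of log2 ratio) against the deposited log2 ratio of *hand173* over w1118 for arrays 1 to 3. Black lines mark the array medians of 0.97, 0.38 and -0.56, dashed lines the lower and upper thresholds, and ticks the 5, 6 and 21 genes of the group with a value; the axis is limited to 4 in either direction.

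Following the methods of the study, a gene was scored when at least 2 arrays passed the same threshold, a ratio under 0.67 for lower genes and a ratio more than 33% above 1 (a log2 ratio of 0.41) for higher genes. With the values as deposited, *eag* was scored as lower, which is 1 of the 8 genes with 2 or more values, and 0 genes were scored as higher. Over all 2517 genes with at least 2 values the shares were 20.5% lower and 9.69% higher. With each array centred, *eag* was again scored as lower and 2 genes were scored as higher, the pump subunit gene *Atpα* and the cation channel gene *TrpA1*. The shares over all genes were then 21.9% lower and 11.8% higher. With 8 genes open to scoring, counts of 1 and 2 do not set the group apart from these shares. The median of the mean log2 ratio was 0.03 for the 8 genes and 0.05 for all genes as deposited, and 0.07 and 0.01 after centring.

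The gene scored as lower, *eag* (CG10952), encodes the founding member of the ether-a-go-go family of voltage-gated potassium channels, first found in flies that shake their legs under ether. It was the only gene of the group with a value on all 3 arrays. The deposited log2 ratios were 0.91 on array 1, -0.90 on array 2 and -1.82 on array 3, corresponding to relative levels of 1.88, 0.537 and 0.284. After centring they were -0.06, -1.27 and -1.26. Arrays 2 and 3 thus gave similar centred ratios of mutant over wild type, 0.414 and 0.418 of the median ratio of the array. Array 1 placed *eag* close to its median, above 45.6% of the genes measured there. The centred values of arrays 2 and 3 lay closer together for *eag* than for all but 1.26% of the 1982 genes measured on both. This closeness depended on the processing, since with the arrays also scaled to a common spread the values were -1.02 and -1.26. On array 2, 19.0% of all genes had lower values, and on array 3 13.9%. The mean over the 3 arrays was -0.60 ± 1.39 (SD, n = 3 arrays) as deposited and -0.86 ± 0.70 after centring, so that the deposited mean was smaller than its spread. Without array 3 the deposited mean was 0.0072. Only arrays 2 and 3 passed the threshold, so that leaving out array 2 or array 3 had to remove the score.

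Such a difference between array 1 and the other two was also present among other genes. Of the 513 genes under 0.67 on centred arrays 2 and 3, 212 had a value on array 1, with a median centred log2 ratio of -0.24. Of the 212 genes, 75 lay under 0.67 on array 1, 39 over the upper threshold and 98, *eag* among them, between the thresholds. On the higher side, 233 genes lay over the upper threshold on centred arrays 2 and 3, of which 42 had a value on array 1. Their median there was -0.11. Of the 42 genes, 6 lay over the upper threshold on array 1, 6 under 0.67 and 30 between the thresholds. Among all genes on centred array 1, 22.7% lay over the upper threshold and 21.9% under 0.67. *Atpα* and *TrpA1*, described below, are without a value on array 1.

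**Figure D2:**
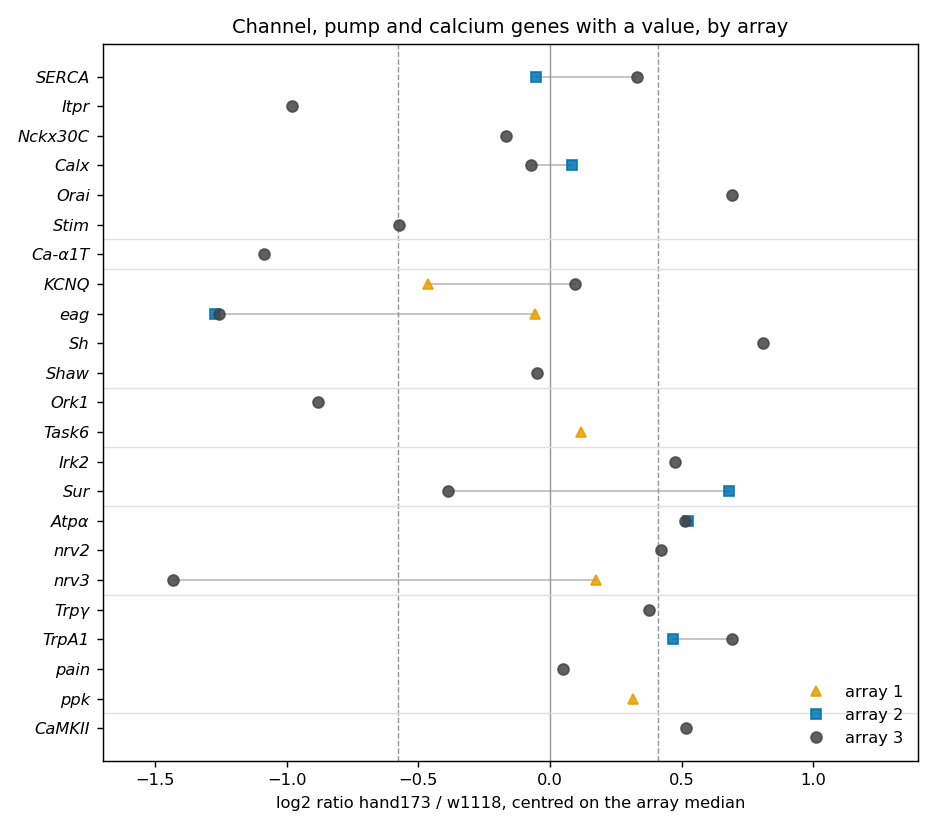
Centred log2 ratio of *hand173* over w1118 (horizontal axis) on each array for the 23 genes of the group with a value, ordered by role. Triangles are array 1, squares array 2 and circles array 3; dashed lines mark the lower and upper thresholds, and *eag*, *Atpα* and *TrpA1* pass the same threshold on arrays 2 and 3.

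Of the genes for the sodium potassium pump, 3 of 4 had a row. *Atpα* (CG5670), which encodes the catalytic subunit, had deposited log2 ratios of 0.90 on array 2 and -0.04 on array 3. After centring both arrays gave nearly the same value, 0.52 and 0.51. The mean was 0.52 ± 0.01 (SD, n = 2 arrays), which is a centred ratio of mutant over wild type of 1.43. The difference between arrays 2 and 3 was smaller for only 1.06% of the genes measured on both. With the arrays also scaled to a common spread, the values of *Atpα* were 0.42 and 0.51. Among all genes with at least 2 values, 82.6% had a lower centred mean. As deposited *Atpα* passed the upper threshold on array 2 alone, so that its score depended on centring. The deposited mean of 0.43 was smaller than the SD of 0.67.

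The genes *nrv1*, *nrv2* and *nrv3* encode β subunits, which carry the catalytic subunit to the membrane. *nrv2* (CG9261) was measured on array 3 only, with -0.14 as deposited and 0.42 after centring, close to the value of *Atpα* on that array. *nrv3* (CG8663), whose product is found mainly in the nervous system, had 1.15 on array 1 and -1.99 on array 3. These values lay on opposite sides of the array medians, at 0.18 and -1.43 after centring. Array 3 thus gave the lowest centred value of all 21 genes of the group measured on it, above 11.4% of all genes, whereas array 1 placed the same gene above 63.0%. The centred mean of -0.63 ± 1.14 (SD, n = 2 arrays) was smaller than its spread, and *nrv3* was not scored. No row was used for *nrv1*.

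In the RefSeq gene order *Atpα* lies between *hdly* and *Calx*. The centred log2 ratios of *hdly*, named here after its values had been seen, were 0.89 on array 2 and 0.49 on array 3, over the upper threshold on both as for *Atpα*. *Calx*, on the other side, lay near both medians. Of all 1982 genes measured on both arrays, 233 lay over the upper threshold on both after centring. Neighbours of the other genes of the group were also looked up and are not described, and an effect of gene position was not tested.

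Of the 8 genes for calcium stores, exchangers and store-operated entry, 6 had a row, and *SERCA* and *Calx* were measured on 2 arrays. *SERCA* (CG3725) encodes the pump that returns calcium to the sarcoplasmic reticulum after each beat. Its deposited log2 ratios were 0.32 on array 2 and -0.23 on array 3, or -0.05 and 0.33 after centring, with a centred mean of 0.14 ± 0.27 (SD, n = 2 arrays). *Calx* (CG5685) encodes the exchanger that expels calcium in return for sodium. It had 0.46 on array 2 and -0.63 on array 3, or 0.08 and -0.07 after centring, and a centred mean of 0.01 ± 0.11, which is next to the middle of all genes. The deposited values of *Calx* passed opposite thresholds, and the difference between the arrays was 0.15 after centring. Neither gene was scored under the rule, and for both the mean was smaller than the spread.

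The other 4 genes of this class were measured on array 3 only. *Itpr*, the receptor for inositol trisphosphate that releases calcium from the endoplasmic reticulum, had the lowest value with a log2 ratio of -1.54 as deposited and -0.98 after centring. *Stim*, the sensor of the calcium content of the store, had -1.13 and -0.58, a centred ratio of 0.671 that lay just outside the threshold. *Orai* (*olf186-F*), the pore in the cell membrane that Stim opens, lay on the other side of the median with 0.13 and 0.69. *Nckx30C*, a potassium-dependent sodium calcium exchanger, had -0.72 and -0.17. Since array 3 alone measured these genes, none of these values has a check on another array. The release channel *RyR* and the membrane pump *PMCA* were without a row.

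Of the 5 genes for voltage-gated calcium and sodium channels only *Ca-α1T* (CG15899), a T-type calcium channel that opens at low voltages, had a value. Its log2 ratio on array 3 was -1.64 as deposited and -1.09 after centring, a centred ratio of 0.470, with 16.6% of all genes below it. The L-type channel gene *Ca-α1D*, the presynaptic channel gene *cac*, the sodium channel gene *para* and its accessory subunit gene *tipE* were without a row.

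Among the voltage-gated potassium and pacemaker channels, 4 of 9 genes had a row. Besides *eag*, *KCNQ* (CG33135), a slowly activating channel, was measured on 2 arrays, with 0.50 on array 1 and -0.46 on array 3. After centring the values were -0.47 and 0.09, with a mean of -0.19 ± 0.40 (SD, n = 2 arrays), smaller than the spread. Centring turned the order of the arrays for this gene. *Sh*, the Shaker channel of the fast transient current, had the highest centred value of the group on array 3, 0.81, above 90.1% of all genes, against a deposited log2 ratio of 0.25. *Shaw* lay at the median of array 3 with -0.60 as deposited and -0.05 after centring. The 4 potassium channel genes on array 3 thus ran from -1.26 for *eag* to 0.81 for *Sh* and did not share a direction. *sei*, *Elk*, *Shab*, *Shal* and the pacemaker channel gene *Ih* were without a row under the numbers used here. RefSeq assigns further numbers with a row to *Ih* (CR30068) and *Shab* (CG9965), which were not counted with the group. CR30068 had a log2 ratio of 2.45 on array 2 only, or 2.07 after centring. CG9965 had 0.17 on array 3 only, or 0.73 after centring.

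Neither of the calcium-activated potassium channel genes, *slo* and *SK*, had a row. Of the leak channels, which set the resting potential, *Ork1* (CG1615) had -1.44 on array 3, or -0.88 after centring, a centred ratio of 0.543. Ork1 is known as a determinant of heart rate in flies. *Task6* had 1.09 on array 1 only, or 0.12 after centring, and no row was used for *Task7*. These genes were measured on different arrays and cannot be set against each other.

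Of the inward rectifiers and the sulphonylurea receptor, *Sur* (CG5772) was measured on 2 arrays. Its product belongs to the ABC transporter family and is related to the regulatory subunit of potassium channels that close when ATP is plentiful. Its deposited log2 ratios were 1.06 on array 2 and -0.94 on array 3, which passed opposite thresholds. After centring they were 0.68 and -0.39, still on opposite sides of the medians, with a mean of 0.15 ± 0.75 (SD, n = 2 arrays). The difference of 1.07 between the centred arrays was larger than for 85.0% of the genes measured on both. *Irk2*, an inwardly rectifying potassium channel gene, had -0.08 on array 3, or 0.48 after centring, and *Irk1* and *Irk3* were without a row.

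Of the TRP and DEG/ENaC channels, 4 of 6 genes had a row. *TrpA1* (CG5751), a cation channel opened by warmth and irritants, had deposited log2 ratios of 0.84 on array 2 and 0.14 on array 3. After centring the values were 0.47 and 0.69, with a mean of 0.58 ± 0.16 (SD, n = 2 arrays), a centred ratio of 1.49. This mean lay above those of 85.8% of all genes with at least 2 values. Both centred values passed the upper threshold, and the mean was larger than the SD, whereas as deposited only array 2 passed it. When the arrays were also scaled to a common spread, array 2 gave 0.37 and *TrpA1* was no longer scored. *Atpα* was still scored, but narrowly, with 0.420 on array 2 against the threshold of 0.411. On array 3, *Trpγ* had a centred log2 ratio of 0.38 and *pain*, a channel for noxious heat and touch, 0.05. *ppk*, a subunit of a sodium channel of sensory neurons, was measured on array 1 only, with 1.29 or 0.32 after centring. The photoreceptor channel genes *trp* and *trpl* were without a row.

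*CaMKII* (CG18069), the kinase activated by calcium-bound calmodulin, had a deposited log2 ratio of -0.04 on array 3, or 0.52 after centring. No row was used for calmodulin (*Cam*).

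**Figure D3:**
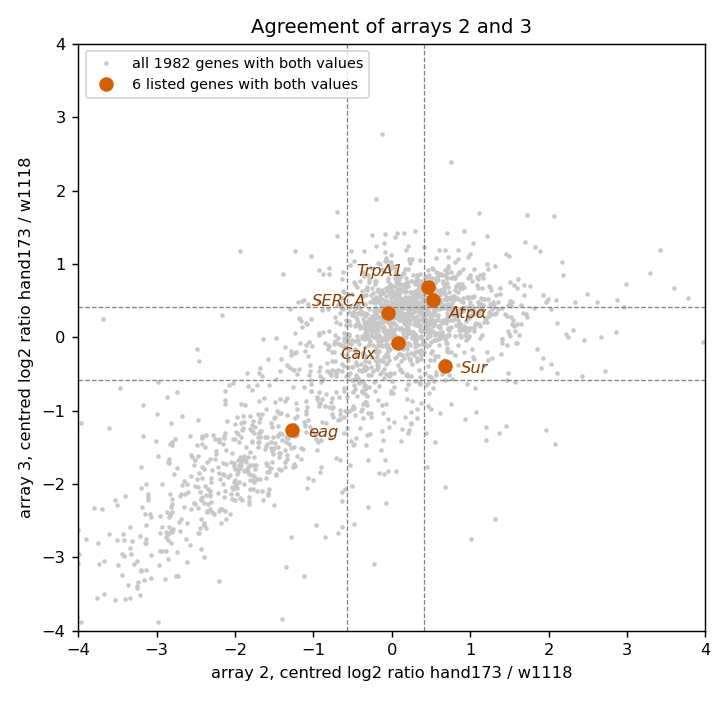
Centred log2 ratio on array 3 (vertical axis) against that on array 2 (horizontal axis) for all 1982 genes measured on both (grey; 38 lie outside the plotted range) and the 6 genes of the group among them (orange). Dashed lines mark the thresholds; *eag* lies in the lower left field, *Atpα* and *TrpA1* in the upper right field and *Sur* right of centre and below the median of array 3.

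Arrays 2 and 3 were both available for 6 genes of the group. Of these, *eag*, *Atpα* and *TrpA1* lay on the same side of both array medians, and *SERCA*, *Calx* and *Sur* on opposite sides. Over all 1982 genes with both values, 75.2% lay on the same side. The median absolute difference between the centred arrays was 0.19 for the 6 genes and 0.42 for all. The difference was 0.15 for *Calx*, 0.38 in size for *SERCA*, which is larger than for 46.2% of all genes, and 1.07 for *Sur*.

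On array 3 alone, which held 21 of the 23 genes, 10 genes lay under 0.67 and 0 over the upper threshold as deposited, against 49.0% and 6.5% of all genes. After centring, 5 genes lay under 0.67 (*nrv3*, *eag*, *Ca-α1T*, *Itpr* and *Ork1*) and 7 over the upper threshold (*Sh*, *TrpA1*, *Orai*, *CaMKII*, *Atpα*, *Irk2* and *nrv2*), against 28.1% and 27.3% of all genes. These are 23.8% and 33.3% of the 21 genes. The median of the group on array 3 was 0.05 after centring. On array 1 all 5 genes with a value exceeded the upper threshold as deposited, as did 77.6% of all genes. After centring 0 of the 5 passed either threshold, against 21.9% of all genes under the lower and 22.7% over the upper one.

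Further genes of ion transport and calcium signalling were compared by the same rule. Of 29 other calcium handling genes, among them mitochondrial uptake, calcineurin and calcium sensor genes, 13 had a row and 5 had at least 2 values, of which 0 were scored as deposited and 1 as higher after centring, against 11.8% of all genes. This was *Frq2* (CG5907), a frequenin that binds calcium in nerve terminals. It had 3.37 on array 2 and 0.18 on array 3, or 2.99 and 0.73 after centring, with a mean of 1.86 ± 1.60 (SD, n = 2 arrays).

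Of 21 other channels and channel subunits, 13 had a row, and both genes with at least 2 values were scored as lower with the values as deposited and after centring, against 20.5% and 21.9% of all genes. With 2 genes this does not set the list apart. On centred array 3 alone, 12 genes of the list ran from -2.99 to 0.50 with a median of -0.02. Of these, 4 lay under 0.67 and 2 over the upper threshold, against 28.1% and 27.3% of all genes. *slob* (CG6772) encodes a protein that binds the calcium-activated potassium channel Slo. It had centred log2 ratios of 0.01, -2.29 and -1.33 on arrays 1, 2 and 3, and *eag* likewise lay near the median of array 1 and under 0.67 on arrays 2 and 3. The centred mean of *slob* was -1.20 ± 1.15 (SD, n = 3 arrays). *nan* (CG5842), a TRP channel subunit of stretch-sensitive neurons, had -1.95 on array 2 and -1.74 on array 3 after centring, with a mean of -1.85 ± 0.15. It was without a value on array 1. Of 8 innexins, which form the gap junctions between heart cells, 4 had a row and 1 had at least 2 values, and of 8 cation chloride and proton transporters 4 had a row and 2 had at least 2 values. In these lists 0 genes were scored in either direction, as deposited or centred. Among all genes 20.5% were lower and 9.69% higher as deposited, and 21.9% and 11.8% after centring. With so few genes open to scoring, this does not show that the lists were unchanged. On centred array 3 alone the 4 innexins ran from -2.85 for *Inx3* to 0.42, with 1 under 0.67 and 1 over the upper threshold.

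**Figure D4:**
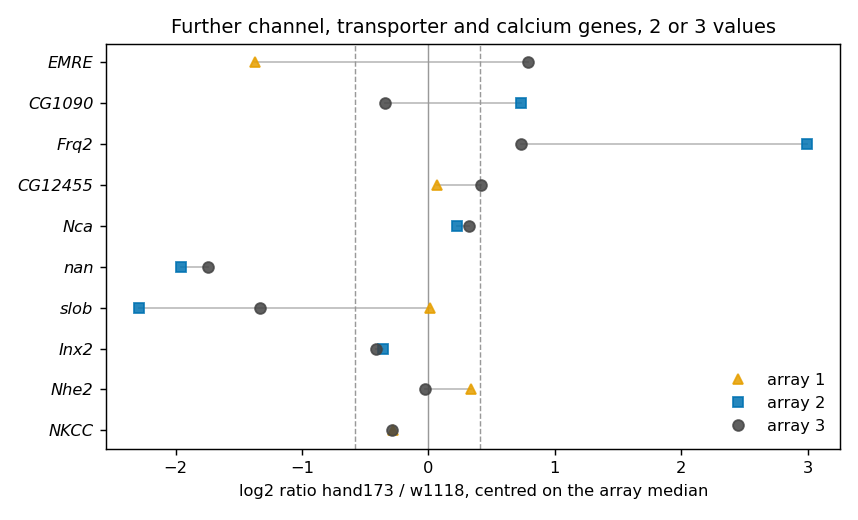
Centred log2 ratio of *hand173* over w1118 (horizontal axis) for the 10 further channel, transporter and calcium genes with 2 or 3 values. Triangles are array 1, squares array 2 and circles array 3; dashed lines mark the thresholds, which *nan* and *slob* pass downwards and *Frq2* upwards on arrays 2 and 3.

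Several of the channels also act in neurons, and the values of marker genes are given for comparison. Of 13 neuron markers 6 had a row, and their centred log2 ratios on array 3 ran from -1.10 for the synaptic vesicle gene *nSyb* to 1.27, with a median of 0.28. Of the 3 with at least 2 values, 0 were scored. Of 15 muscle markers 9 had a row, with centred values from -1.61 to 1.31 on array 3 and a median of 0.21, and 0 of the 2 with at least 2 values were scored. Among fat body markers, 6 of 7 had a row. *Lsp1alpha* was scored as lower with 0.39, -3.68 and -3.05 on arrays 1, 2 and 3 after centring, and *Fbp1* as higher as deposited only. The other fat body markers with a row were not lower after centring, with *Lsp1beta* at 0.02 and *Lsp2* at 1.04 on array 3, *Lsp1gamma* at 0.49 and 0.35 on arrays 1 and 3, and *apolpp* at 0.79 on array 2. Of 7 heart and pericardial markers 5 had a row, with a median of -0.16 on array 3. *mgl* was scored as lower with centred values of -5.16 on array 2 and -5.83 on array 3. The others had 1 value each, 0.80 for *Cubn*, 0.40 for *hand* and -0.73 for *svp* on array 3, and 1.06 for *sns* on array 2. Of 6 hemocyte markers 3 had a row, none with a second value. After centring, *srp* had 1.78 on array 2, and *PPO2* had 1.04 and *NimC1* -0.22 on array 3. The part of other cell types in the ratios of the channel genes was not tested.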

How the data were processed

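Larval heart RNA of *hand173* and w1118 was compared on 3 spotted two-colour arrays of 1 pair of RNA pools. Scans were read and normalized by the authors in GenePix 6.0 and Acuity 4.1, and the deposited values are log2 ratios, at most 1 for a gene on an array. The log base, not stated in the sources used here, was read from the values. With base 2, between 99% and 100% of 200 low ratios per array were whole thousandths times 1 factor (tolerance 0.02), against at most 24% with base e or 10. How normalization and spot filtering were done, and why cells are empty, is not given in the sources used here. Spot intensities were not used, so that signal over background is unknown, and precision is limited by the number of arrays.

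The deposited log2 values were read by CG number for 43 genes, and 23 were found. Values were used as deposited and after subtraction of each array's median over all genes with a value on that array. This also removes any constant factor of an array. A gene was scored by thresholds at a ratio of 0.67 and at 33% above 1 (log2 ratios of -0.58 and 0.41), to be passed on at least 2 arrays, without a significance test. Shares over all genes were computed from the 2517 genes with at least 2 values. All genes of the group with 2 or more values are described with every value, and those with 1 value by role. Of the further lists, genes scored on at least 2 arrays, defining markers and some other genes are named. The group and the lists were chosen with earlier results of these data known. List genes were kept where RefSeq (Release 6 plus ISO1 MT) gives the written symbol for the number, in which 7085 of the 7498 numbers were found. Sequences and coordinates are not given, since no genome build is named for the array. Alternatives were centring, scaling, other thresholds, all 3 arrays, mean ratios and leaving out each array in turn. The scoring code was checked on simulated arrays with much less spread than these data. That check does not show how reliable a score is on these arrays. Python 3.11.15, numpy 2.4.6, pandas 2.3.3 and matplotlib 3.10.9 were used.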

Additional observations from a re-analysis of the deposited data

How the results depend on the processing

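The score of *eag* as the 1 lower gene held on centred arrays, on centred and scaled arrays and with a 1.5-fold threshold. With the mean log2 ratio the score held narrowly, at -0.60 against the threshold of -0.58. With a 2-fold threshold, or when all 3 arrays had to pass, 0 genes were scored as lower. Without 1 array the number of lower genes ran from 0 to 1, both as deposited and after centring. It was 1 without array 1, 0 without array 2 and 0 without array 3. Because *eag* passed the threshold on arrays 2 and 3 only, these numbers were fixed by that and say nothing about stability. The mean log2 ratio of *eag* ran from -1.36 without array 1 to 0.0072, a change of sign, without array 3. The number of higher genes was 0 as deposited, 2 on centred arrays, 1 on centred and scaled arrays and 2 with the mean ratio, which scored *Atpα* and *TrpA1*. Against the threshold of 0.411, *Atpα* passed narrowly with scaling, at 0.420 on array 2, and with the mean ratio, at 0.428. On centred arrays without 1 array it ran from 0 to 2, with 2 without array 1, a setting added after the values were seen. Since *Atpα* and *TrpA1* have values on arrays 2 and 3 only, these numbers follow from the missing values and say nothing about stability. The centred median of the group, 0.07, was -0.86 for the 1 gene with 3 values, which is *eag*, and ran from -0.67 to 0.14 without 1 array, with 3 genes left when array 2 was omitted and 1 when array 3 was. Leaving out 1 array changed the sign of the deposited mean for 7 of the 8 genes, *TrpA1* being the exception, and of the centred mean for 5, namely *SERCA*, *Calx*, *KCNQ*, *Sur* and *nrv3*. Most of these genes had 2 values, so that 1 value then remained. Each ratio already pairs both genotypes within an array, and with 1 RNA pool per genotype there were no replicate pairs to analyse. Signal over background is unknown, and 15 of the 23 genes rest on 1 array.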
